A study of Drosophila melanogaster with 4 samples.

Results

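The cuticle protein families of Drosophila melanogaster were followed here as 121 of the 14240 genes counted in each single-cell library: those with a symbol that begins with Cpr, Twdl, Lcp or Ccp84. The gene with the bare symbol Cpr was taken by the prefix, but it encodes cytochrome P450 reductase and no cuticle protein, so the counts below rest on the other 120. These comprised 70 Cpr, 26 Twdl, 17 Lcp and 7 Ccp84 genes. Cells came from 2 groups of the same genotype, wor-GAL4 driving UAS-mCD8-GFP: larval brains at 24 h after larval hatching (24 h ALH, when neural stem cells, NSCs, have reactivated) and stage 17 embryos (when NSCs are quiescent). Each group had 2 libraries, made from live GFP-positive cells sorted by FACS and processed with the 10x Chromium droplet method, in which each RNA molecule caught in a droplet is counted once by its unique molecular identifier (UMI). wor-GAL4 is active in NSCs and the membrane GFP is inherited by their progeny, so that NSCs, neurons and glia were the cell types named by the labels for both groups. The labels give brain as the tissue of all 4 libraries, whereas the methods speak of embryos at stage 17. Nothing states how many animals were pooled for a library.

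Insect cuticle is an extracellular layer of chitin fibres and proteins, secreted by epidermal cells, tracheal cells and the cells that line the foregut and hindgut. Most Cpr, Lcp (larval cuticle protein) and Ccp84 proteins carry the Rebers and Riddiford domain, which binds chitin, whereas the Tweedle proteins (Twdl) form a separate family that binds chitin without it. The genes lie in tandem arrays, and different sets of them are used at each moult. In the late Drosophila embryo the epidermis lays down the cuticle of the first larva, and the first larval moult follows about a day after hatching. Neural cells are not known to make cuticle.

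Of 4152 called cells, 3567 passed the filters on genes and mitochondrial RNA: 923 and 1015 at 24 h ALH and 409 and 1220 at stage 17. Depth differed between the groups, with a median of 48895 and 17791 UMIs per kept cell at 24 h ALH and 3812 and 4861.5 at stage 17. Reagent chemistry was version 2 in the first library of stage 17, and version 3 otherwise. That library held 2049371 UMIs in kept cells, the fewest of the 4 libraries, and the others held 12366916 to 48942201. Libraries shared few cell barcodes, with 4 between the first library of 24 h ALH and the second of stage 17 and 1 between the second libraries of both groups. Doublets were called in 5 to 15 cells per library and kept. Since nothing says that replicates came from separate crosses, p-values measure only the spread between these libraries.

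Of the 120 genes, 114 had at least 1 UMI in a kept cell, and 61 were seen in all 4 libraries. The 6 without a UMI were Cpr47Ef, Cpr49Ad, Cpr57A, Cpr64Aa, Lcp65APsi and Lcp65Ab1. The libraries of 24 h ALH held 94 and 99 of the genes, and those of stage 17 held 73 and 93. The UMIs were concentrated in few genes: of 163917 cuticle protein UMIs, Lcp65Ag2 alone held 13.0%, the leading 5 genes held 49.5% and the leading 15 held 74.6%. The leading 5 were Lcp65Ag2 with 21362 UMIs, Lcp65Ag3 with 17738, Lcp65Ag1 with 15942, Cpr47Eg with 13891 and TwdlN with 12205. The leading Ccp84 gene was Ccp84Ad with 4925 UMIs. At least 100 UMIs were reached by 68 genes and at least 1000 by 33.

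By position (BDGP6.54, the dm6 assembly), 92 of the genes fell into 17 tandem arrays with gaps of at most 20 kb, and 28 stood alone. The largest array, at 65A on chromosome 3L (6130386 to 6161589), held 18 Lcp65A and Cpr65A genes and 45.0% of all cuticle protein UMIs. A Tweedle array of 12 genes from TwdlM to TwdlD on 3R (26619118 to 26641054) held 15.2%, the 7 Cpr47E genes on 2R (11251751 to 11278445) held 10.6%, and the 7 Ccp84A genes on 3R (6686728 to 6704903) held 10.3%. A few close arrays thus carried most of the RNA. Lcp65Ag1, Lcp65Ag2 and Lcp65Ag3 are near-identical copies, as are Cpr67Fa1 and Cpr67Fa2, Cpr65Ax1 and Cpr65Ax2, and Lcp65Ab1 and Lcp65Ab2. How reads were divided within each set is uncertain. Cpr64Ad, Twdlalpha, TwdlT, Cpr50Ca and Cpr57A overlap another gene on the same strand.

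One small group of cells held a large part of the cuticle protein RNA in every library. When cells were clustered without the cuticle protein genes, a cluster of 97 cells (10 and 36 at 24 h ALH, 17 and 34 at stage 17) contained 75.6% and 80.9% of a library's cuticle protein UMIs at 24 h ALH and 79.0% and 63.5% at stage 17. It is called the cuticle cluster below. It was singled out because it was the richest of the 17 clusters, so its levels are a description and were not tested. In the second library of 24 h ALH the share of the richest cluster depended on the clustering. It was 49.6% (10 cells) at resolution 1, 48.9% (10 cells) with a mitochondrial maximum of 10% and 53.4% (12 cells) with cuticle protein genes among the clustering features. Cuticle protein RNA made up 378 and 523 of every 10000 UMIs in it at 24 h ALH, against 1397 and 1267 at stage 17 (450 ± 103 and 1332 ± 91.5, SD, n = 2 libraries each). In all kept cells together the level was 4.93 and 11.3 per 10000 at 24 h ALH and 79.4 and 70.9 per 10000 at stage 17. Both stage 17 libraries were thus above both 24 h ALH libraries in the cluster and in the whole sort.

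**Figure D1:**
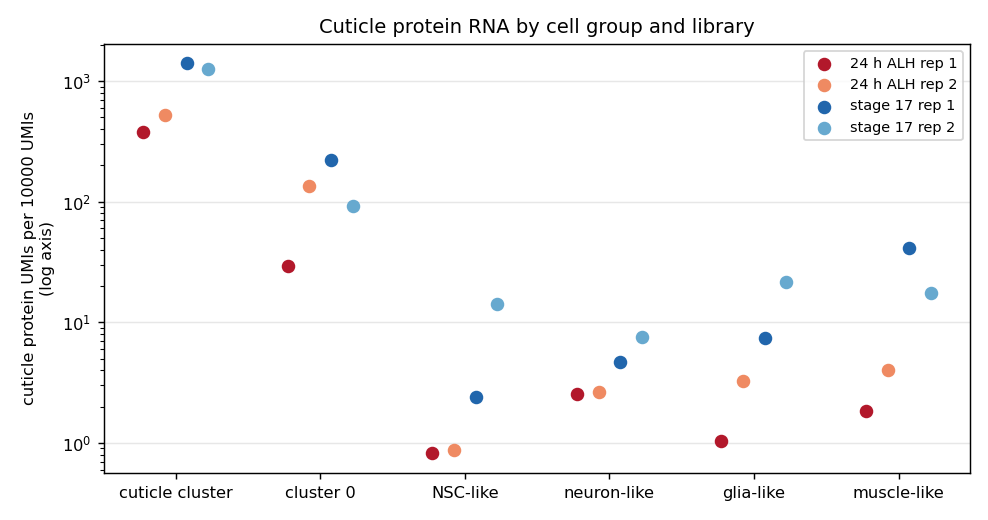
Cuticle protein UMIs per 10000 UMIs (vertical log axis) in 6 groups of cells, with 1 point per library and no error bars. The cuticle cluster lies between 378 and 1397 in the 4 libraries, and NSC-like cells lie between 0.819 and 14.1.

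The second largest holder was cluster 0, with 561 cells of which 520 came from the second stage 17 library. Markers of muscle and of neurons were both raised in it, with nSyb in 92.9% of its cells, and it was left unnamed. Cuticle protein RNA reached 29.4 and 136 per 10000 in its 4 and 12 cells of 24 h ALH, and 221 and 91.6 per 10000 in its 25 and 520 cells of stage 17. It held 26.5% of the cuticle protein UMIs of the second stage 17 library, against 14.7% of those of the first. Cpr64Ad (65.9% of its UMIs), Ccp84Ae (82.3%) and Ccp84Ag (54.2%) had most of their RNA there. In the first stage 17 library single cells held 96.2% of the Cpr64Ad UMIs, 63.6% of the Ccp84Ae UMIs and 89.5% of the Ccp84Ag UMIs.

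Of the 68 genes with at least 100 UMIs, 62 had their largest share in the cuticle cluster (56 of them at least 50%), 5 in cluster 0 and 1 in NSC-like cells. None had its largest share in neuron-like, glia-like or muscle-like cells. The levels of the last 2 classes rest on 8 and 14 glia-like cells and 2 and 6 muscle-like cells at 24 h ALH, and on 15 and 21 glia-like cells and 12 and 10 muscle-like cells at stage 17.

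The cuticle cluster could not be given a cell type name from the marker lists, because markers of several tissues were raised in it. Tracheal markers had 25.9 and 38.8 UMIs per 10000 at 24 h ALH and 29.0 and 25.01 at stage 17. Epidermal markers had 10.1 and 7.50 at 24 h ALH and 57.0 and 35.3 at stage 17. Muscle markers had 0.828 and 50.7 at 24 h ALH and 5.002 and 30.1 at stage 17, and neuronal markers 5.03 and 13.7 at 24 h ALH and 23.8 and 16.5 at stage 17. NSC markers were low, at 2.38 and 0.307 per 10000 at 24 h ALH and 0 and 0.0228 at stage 17. How these cells entered the sort was not tested.

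The genes that build chitin were also high in the cuticle cluster. The fixed list of 18 genes for chitin synthesis and assembly, of which 17 or 18 were seen in each library, had 47.9 and 59.5 UMIs per 10000 in the cuticle cluster at 24 h ALH and 62.7 and 56.7 at stage 17, a similar level in all 4 libraries. In NSC-like cells the same list had 0.459 and 0.486 per 10000 at 24 h ALH and 0.882 and 1.22 at stage 17. Its leading genes in the cluster were Gasp, a chitin-binding protein of the trachea, with 440 and 1078 UMIs at 24 h ALH and 16 and 75 at stage 17, obst-E, a chitin-binding protein that shapes the larval body, with 396 and 448 at 24 h ALH and 151 and 773 at stage 17, and the chitin deacetylase verm, with 200 and 347 at 24 h ALH and 85 and 500 at stage 17.

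Other cuticle lists differed more between libraries of the cluster. The zona pellucida and apical matrix list, led by the giant matrix protein dpy and the apical matrix gene pio, had 22.5 and 16.5 UMIs per 10000 at 24 h ALH and 18.4 and 10.2 at stage 17. The list for sclerotization and pigmentation had 33.1 and 4.76 at 24 h ALH and 2.07 and 6.05 at stage 17, with 930 and 127 UMIs of the tyrosine hydroxylase gene ple at 24 h ALH and 2 and 37 at stage 17. Cuticle proteins outside the 4 prefixes had 0.662 and 5.70 at 24 h ALH and 55.1 and 29.5 at stage 17. Most of these were Vajk genes, with 16 and 76 UMIs of Vajk2 at 24 h ALH and 233 and 599 at stage 17. The regulators of cuticle genes, among them the nuclear receptor gene ftz-f1, grh and ovo, had 9.23 and 5.50 at 24 h ALH and 8.92 and 9.08 at stage 17, close to their level in NSC-like cells (8.49 and 7.29, and 8.58 and 9.48).

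Within the cluster, single cells carried very different sets of cuticle protein genes. One cell held 41.4% and 29.7% of a library's cuticle protein UMIs at 24 h ALH (9999 and 10648 UMIs) and 33.1% and 13.0% at stage 17 (5383 and 11390 UMIs). In the first library of 24 h ALH, the 10 cells had 10 different leading genes (Ccp84Ab, Ccp84Ad, Cpr31A, Cpr56F, Cpr64Ad, Cpr65Av, Lcp65Ac, TwdlF, TwdlG and TwdlV), and the median pair of cells shared only 1.77% of its cuticle protein profile. This overlap is the sum over genes of the smaller of the 2 cells' shares. At stage 17 the same median was 13.0% and 46.6%, and the most frequent leading genes were Lcp65Ag3 in 5 of 17 cells and Lcp65Ag2 in 13 of 34 cells. The median number of cuticle protein genes with a UMI in a cell was 13.5 and 50.5 at 24 h ALH and 13 and 20 at stage 17, which does not show that the cell itself made each of them.

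The high median of the second library of 24 h ALH came from 26 cells with 40 to 70 cuticle protein genes each, a number that no cell of the cluster reached in the other 3 libraries. Their leading gene held a median of 8.06% of a cell's cuticle protein UMIs and the median pair shared 74.6% of its profile, against 32.2% and 3.49% in the other 10 cells of that library. They held 31.8% of its cuticle protein UMIs. Transcripts of a set of 23 genes chosen after these cells were seen, digestive proteases and lysozymes (Jon and Lys), made up 219 of every 10000 UMIs in these 26 cells, 3.37 in the other 10, and 0 to 0.592 in the cluster's cells of the other 3 libraries. Muscle markers (76.3 against 15.8 per 10000), fat body markers (30.7 against 2.77) and haemocyte markers (13.5 against 0.810) were also higher in the 26 cells than in the other 10, and tracheal markers were lower (14.8 against 71.4). The stage comparison over all kept cells is given without these 26 cells below.

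**Figure D2:**
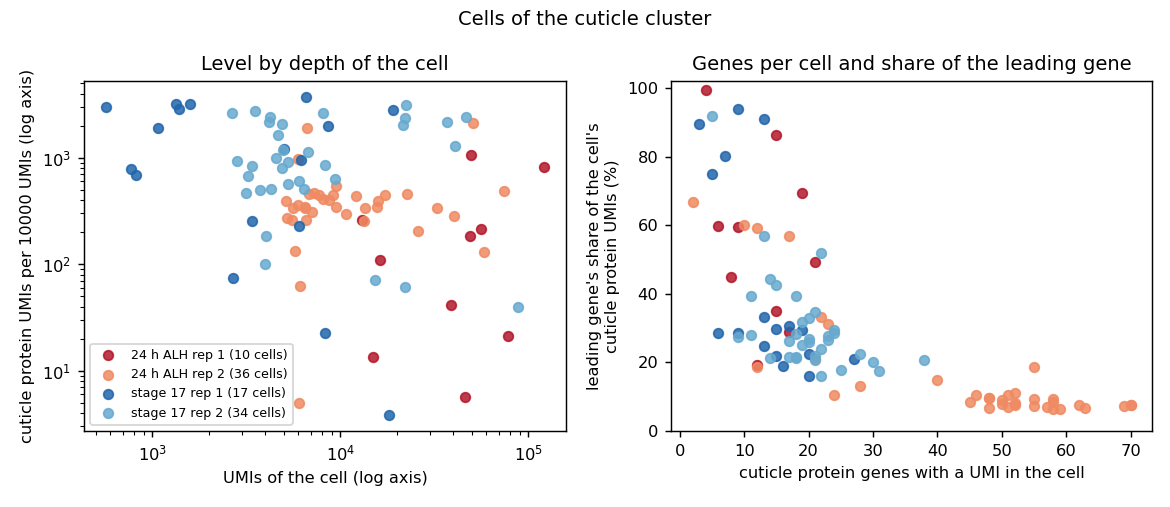
The 97 cells of the cuticle cluster, 1 point per cell, by library. Left, cuticle protein UMIs per 10000 UMIs against the UMIs of the cell (both log axes). Right, the leading gene's share of the cell's cuticle protein UMIs against the number of cuticle protein genes seen in the cell. The 26 cells at the lower right, with 40 to 70 genes, are all from the second library of 24 h ALH.

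The make-up of the cuticle protein RNA in the cluster differed between the stages. Ccp84A genes held 20.8% and 32.9% of the cluster's cuticle protein UMIs at 24 h ALH and 0.117% and 0.925% at stage 17. The Tweedle array from TwdlM to TwdlD was the converse, with 0.0383% and 3.91% at 24 h ALH and 34.4% and 17.4% at stage 17. A second Tweedle array on 3R (4243606 to 4255833; TwdlU, TwdlF, TwdlG and TwdlV) had 7.62% and 3.01% at 24 h ALH and 0.0778% and 0.113% at stage 17. The array at 65A was large in both, with 49.9% and 17.9% at 24 h ALH and 48.4% and 56.3% at stage 17. In the first library of 24 h ALH, 6946 of the UMIs of this array were Cpr65Av in 1 cell. Another cell of that library held 1033 TwdlF and 133 TwdlG UMIs. In the second library of 24 h ALH 1 cell held 3318 Ccp84Ac and 2310 Ccp84Ad UMIs. The array shares at 24 h ALH thus depend on single cells. The profiles of the 2 libraries of 24 h ALH overlapped by 34.0%, against 66.8% between the stage 17 libraries and 6.98% to 25.2% between stages.

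**Figure D3:**
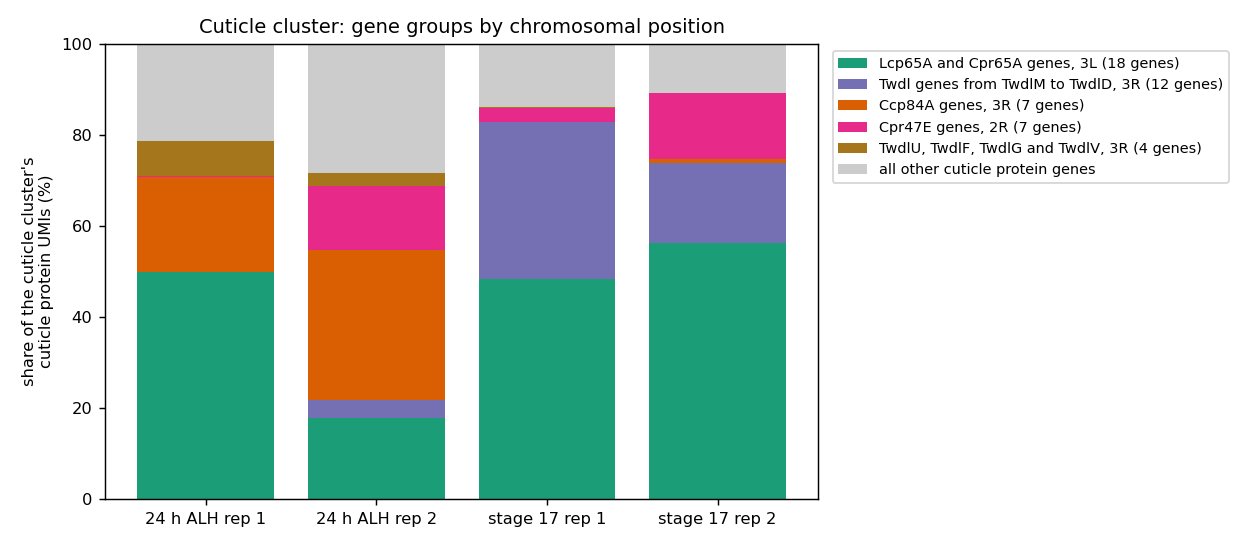
Share of the cuticle cluster's cuticle protein UMIs (vertical axis, %) held by 5 tandem arrays and by all other cuticle protein genes, 1 bar per library. The Ccp84A array reaches 20.8% and 32.9% at 24 h ALH and stays under 1% at stage 17, where the Tweedle array from TwdlM to TwdlD holds 34.4% and 17.4%. The shares at 24 h ALH depend on single cells.

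Among larval cuticle proteins of 65A, the 3 Lcp65Ag copies were lower in both libraries of 24 h ALH. Lcp65Ag2 had 1655 and 2046 CPM (UMI counts scaled to a common library size by TMM factors) at 24 h ALH and 17570 and 32367 at stage 17. Lcp65Ag3 had 153 and 1402 CPM at 24 h ALH and 21998 and 26817 at stage 17. Its neighbour Lcp65Ad ran the other way, with 1800 and 1034 CPM at 24 h ALH and 19.9 and 0 at stage 17. Cpr65Av, in the same array, overlapped between the stages, with 14767 and 1104 CPM at 24 h ALH and 1137 and 300.0 at stage 17. Of all its UMIs in the first library of 24 h ALH, 96.2% lay in 1 cell.

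The Tweedle gene TwdlN had 2.10 and 234 CPM in the cluster at 24 h ALH and 12724 and 18748 at stage 17. TwdlM had 2 and 433 UMIs at 24 h ALH and 1072 and 1403 at stage 17, TwdlL 1 and 70 against 1149 and 861, and TwdlB 1 and 163 against 830 and 764. Cpr62Bb, of the Cpr family, had 0 and 56 UMIs at 24 h ALH and 1138 and 64 at stage 17. The groups did not overlap for any of these 5 genes, and the first library of 24 h ALH was nearly without them. For Cpr62Bb the second libraries differed little, with 56 and 64 UMIs. Single cells of the first stage 17 library held 567 and 544 of its 1138 UMIs.

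Several genes of the cluster had few UMIs or none at stage 17. Cpr5C had 2567 and 1278 CPM at 24 h ALH and no UMI at stage 17, at least 280-fold higher when 3 UMIs over both stage 17 libraries are taken as the floor. Ccp84Af had 541 and 1916 CPM at 24 h ALH and no UMI at stage 17, at least 183-fold higher. Ccp84Aa had 1816 and 2564 CPM at 24 h ALH and 0 and 29.4 at stage 17, and Ccp84Ad had 1586 and 2791 UMIs at 24 h ALH and 0 and 295 at stage 17. In the first library of 24 h ALH single cells held 84.6% of the Cpr5C UMIs, 94.7% of the Ccp84Aa UMIs, 91.4% of the Ccp84Ad UMIs and 40.3% of the Ccp84Af UMIs. In the second, single cells held 34.0%, 86.6%, 80.7% and 12.9% of the UMIs of the same genes. Another 3 rested on 1 library of 24 h ALH: Ccp84Ac with 3 and 3485 UMIs, Cpr66D with 3 and 2380 and Cpr47Ed with 0 and 1066, each with none at stage 17. In the second library of 24 h ALH single cells held 93.0% of the Ccp84Ac UMIs, 93.7% of the Cpr66D UMIs and 99.9% of the Cpr47Ed UMIs.

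Over the 59 cuticle protein genes that passed the filter on low counts in the cluster, both libraries of 24 h ALH lay above both of stage 17 for 17 genes, and below both for 22. The same held for 33.6% and 26.1% of the 4096 genes that passed in the cluster. The remaining 20 overlapped.

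NSC-like and neuron-like cells carried little cuticle protein RNA. In NSC-like cells it came to 0.819 and 0.867 UMIs per 10000 at 24 h ALH (507 and 337 cells; 2989 and 1772 UMIs) and 2.41 and 14.1 per 10000 at stage 17 (25 and 57 cells; 30 and 1149 UMIs). In neuron-like cells it came to 2.52 and 2.63 at 24 h ALH (244 and 308 cells; 1820 and 1308 UMIs) and 4.71 and 7.63 at stage 17 (227 and 475 cells; 601 and 5629 UMIs). The means were 0.843 ± 0.0333 at 24 h ALH and 8.23 ± 8.24 at stage 17 in NSC-like cells, and 2.58 ± 0.0714 and 6.17 ± 2.06 in neuron-like cells (SD, n = 2 libraries each). The NSC-like mean at stage 17 was 4.91 with cuticle protein genes among the clustering features. Both stage 17 libraries were above both of 24 h ALH in each class. With 2 libraries on each side, the smallest two-sided p of an exact permutation test is 0.333.

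Set against the cuticle cluster of the same library, the level in NSC-like cells was 0.217% and 0.166% at 24 h ALH and 0.172% and 1.11% at stage 17. In neuron-like cells it was 0.668% and 0.502% at 24 h ALH and 0.337% and 0.602% at stage 17. The NSC-like level was 0.325 and 0.330 of the neuron-like level at 24 h ALH and 0.511 and 1.84 of it at stage 17, with the NSC-like level above the neuron-like one only in the second stage 17 library. With cuticle protein genes among the clustering features the levels in that library were close, at 7.57 per 10000 in NSC-like and 7.23 in neuron-like cells. With gates on dpn, wor and nSyb in place of clusters the order was the reverse, at 13.6 and 50.3 per 10000. The nSyb gate took 1049 cells of that library, against 475 neuron-like cells. Since nSyb was seen in 92.9% of cells of cluster 0 and 48.5% of the cuticle cluster, gated values do not describe neuron-like cells alone. Glia-like cells had 1.04 and 3.24 per 10000 at 24 h ALH and 7.37 and 21.4 at stage 17.

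A few cells held a large part of what was there. The richest NSC-like cell had 577 and 218 cuticle protein UMIs at 24 h ALH, 19.3% and 12.3% of its class, and 6 and 341 at stage 17, 20% and 29.7%. Without it the level was 0.664 and 0.762 at 24 h ALH and 1.97 and 10.7 at stage 17. Among neuron-like cells the richest held 33.4% and 24.5% at 24 h ALH and 36.8% and 4.67% at stage 17. None of these 8 cells was called a doublet.

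A deeper cell is more likely to show a cuticle protein UMI at the same level, so each cell was thinned to 1000 UMIs. After thinning, the share of NSC-like cells with at least 1 cuticle protein UMI was 6.51% and 10.4% at 24 h ALH and 12.5% and 64.9% at stage 17. The exact 95% intervals, which cover counting error only, were 4.52 to 9.02%, 7.34 to 14.1%, 2.66 to 32.4% and 51.1 to 77.1%. Neuron-like cells had 11.1% and 20.5% at 24 h ALH and 20.8% and 48.4% at stage 17, and glia-like cells 25% and 42.9% at 24 h ALH and 45.5% and 61.9% at stage 17. The glia-like shares rest on 8, 14, 11 and 21 cells, with intervals of 3.19 to 65.1%, 17.7 to 71.1%, 16.7 to 76.6% and 38.4 to 81.9%. NSC-like and neuron-like shares were below the glia-like ones, except that NSC-like cells in stage 17 replicate 2 were higher. The intervals overlapped the glia-like ones, except that of NSC-like cells in 24 h ALH replicate 2. The source of this RNA was not tested. Over all kept cells the thinned shares were 10.4% and 21.0% at 24 h ALH and 29.6% and 74.4% at stage 17, and the unthinned ones 90.5% and 90.1% at 24 h ALH and 68.5% and 99.3% at stage 17. Median depth was 72338 and 61611 UMIs in NSC-like cells at 24 h ALH and 4213 and 3945 at stage 17, 18457 and 12049.5 in neuron-like cells at 24 h ALH and 4441 and 10791 at stage 17, and 20747 and 8266.5 in glia-like cells at 24 h ALH and 3205 and 4184 at stage 17. Cells under 1000 UMIs were left out, 1 NSC-like, 6 neuron-like and 4 glia-like, all of the first stage 17 library.

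**Figure D4:**
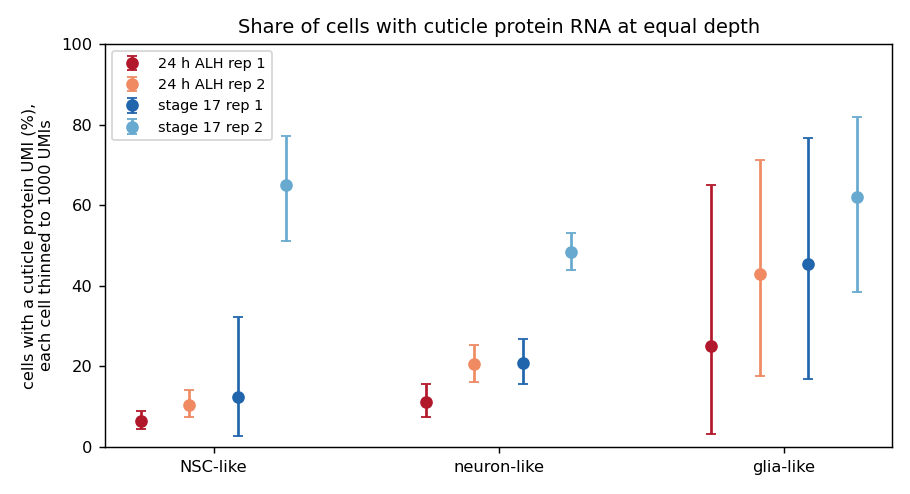
Share of cells with at least 1 cuticle protein UMI after each cell was thinned to 1000 UMIs (vertical axis, %) in NSC-like, neuron-like and glia-like cells, 1 point per library with its exact 95% interval. NSC-like cells lie at 6.51% and 10.4% at 24 h ALH and at 12.5% and 64.9% at stage 17.

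The profile of cuticle protein genes in NSC-like and neuron-like cells was set against that of the cuticle cluster of the same library. In the second stage 17 library the profile of the cluster overlapped by 85.2% with that of NSC-like cells, by 84.5% with that of neuron-like cells and by 82.1% with that of glia-like cells. In the first it overlapped by 45.6% with NSC-like cells, on 30 UMIs, and by 71.3% with neuron-like cells. At 24 h ALH the overlap was 26.3% and 55.6% for NSC-like cells and 26.9% and 52.0% for neuron-like cells. The NSC-like profiles of the 2 libraries of 24 h ALH overlapped by 75.2%, more than either did with its own cluster. In both, Lcp65Ag2, Lcp65Ag3, Lcp65Ag1, Cpr47Eg and Lcp65Ac were the 5 leading genes.

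Among the genes with at least 100 UMIs, 1 had most of its RNA in NSC-like cells and none in the cuticle cluster. Cpr76Bc, a Cpr gene on 3L (19520945 to 19527272), had 228 of its 237 UMIs, 96.2%, in 27 NSC-like cells, and none in the 97 cells of the cuticle cluster. It had 165 and 61 UMIs in NSC-like cells at 24 h ALH and 0 and 2 at stage 17, and 2 and 1 in neuron-like cells at 24 h ALH and none at stage 17. A single NSC-like cell of the first library of 24 h ALH held 94 of these UMIs, 55.6% of that library's, and a single cell of the second held 20, 30.8%. Its neighbours in an array of 4 genes differed from it, with 46.5% of the Cpr76Bb UMIs and 42.5% of the Cpr76Ba UMIs in the cuticle cluster and 2 UMIs of Cpr76Bd in all. Between the stages Cpr76Bc was not called in NSC-like sums, with 5.08 and 3.39 CPM at 24 h ALH and 0 and 2.45 at stage 17 (log2 fold change 1.07 ± 0.89, SE, adjusted p = 0.357 by edgeR).

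Between the stages, NSC-like sums were compared for 26 of the 120 genes, those that passed the filter on low counts. By edgeR's quasi-likelihood test with Benjamini-Hochberg adjustment over 7492 genes, 0 were higher and 12 were lower at 24 h ALH, 46.2% of those tested, where 28.6% of all genes tested were higher and 24.2% lower (52.8% called in either direction). The median log2 fold change of 24 h ALH over stage 17 was -2.63 for the 26 genes and 0.25 for all genes. The share of lower genes and this median depended on the filter, which works on CPM. In the first stage 17 library 2 UMIs already came to 12.7 CPM. Genes high at stage 17 could thus pass on few UMIs, whereas genes seen only at 24 h ALH could fail. The counts of higher and lower genes are therefore a description and do not test a direction of the family. The filter left out, for example, TwdlV and Cpr100A, each with 87 UMIs at 24 h ALH and none at stage 17. Without the filter 0 of 92 genes were higher and 17 lower (18.5%), against 2784 and 1926 of all 10913 genes. The median was then 1.62 for the 92 genes and 0.85 for all genes. Of the genes called, TwdlN differed most, with 1.08 and 0.666 CPM at 24 h ALH and 12.7 and 202 at stage 17 (log2 fold change -7.25 ± 0.89, SE, adjusted p = 0.00508 by edgeR). TwdlB had 0.769 and 1.28 CPM at 24 h ALH and 12.7 and 41.6 at stage 17 (-5.07 ± 0.58, adjusted p = 0.00452 by edgeR). Both lay lower in each library of 24 h ALH. In the first stage 17 library the 12.7 CPM of each is 2 UMIs, whereas the second held 165 UMIs of TwdlN.

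The Lcp65Ag copies were lower in NSC-like cells as well. Lcp65Ag2 had 7.94 and 7.44 CPM at 24 h ALH and 31.7 and 241 at stage 17 (-4.44 ± 0.69, adjusted p = 0.00784 by edgeR), and Lcp65Ag3 had 8.18 and 4.78 CPM at 24 h ALH and 38.1 and 245 at stage 17 (-4.70 ± 0.72, adjusted p = 0.0077). In the first stage 17 library these are 5 and 6 UMIs. Cpr11A, Lcp65Ac, Cpr62Bc and Cpr65Ec were called lower too, without overlap of the libraries. None of them had more than 3 UMIs in the first stage 17 library. Lcp65Ag1, Cpr47Eg, Cpr78Cc and TwdlM were called lower too, but their libraries overlapped, since the first stage 17 library held no UMI of them. Without the second stage 17 library Lcp65Ag2 was at -2.05 and TwdlN at -3.83. The median was then 6.81 for 48 genes tested and 0.68 for all genes. The 4 genes with no UMI in the first then had positive values. Without the first library of 24 h ALH the median was -4.17 for 12 genes tested and 0.18 for all genes.

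Markers of some other cell types moved in the same direction in these sums. All 7 neuronal markers were called lower at 24 h ALH (summed, 1.27 and 1.69 UMIs per 10000 at 24 h ALH, 27.2 and 79.6 at stage 17), and 8 of 9 tested muscle markers were called lower (0.216 and 0.334 at 24 h ALH, 9.78 and 3.38 at stage 17). Tracheal markers had 0.0392 and 0.0513 per 10000 at 24 h ALH and 0.321 and 1.06 at stage 17, with 2 of 4 called lower. The remaining lists did not share one direction. Glial markers had 1 higher and 2 lower of 4, epidermal 1 higher and 1 lower of 2, fat body 1 higher of 2 and haemocyte none called of 2. The study itself reports neuronal gene expression in quiescent NSCs. The part of these markers in the cuticle protein difference was not tested.

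In neuron-like sums 36 of the cuticle protein genes were tested. By edgeR's quasi-likelihood test with Benjamini-Hochberg adjustment over 7733 genes, 4 were higher (11.1%) and 12 lower (33.3%) at 24 h ALH, where 25.1% of all genes tested were higher and 16.0% lower (41.1% called in either direction). The median log2 fold change was -0.55 for the 36 genes and 0.06 for all genes. Lcp65Ag3 had 19.0 and 10.5 CPM at 24 h ALH and 73.0 and 117 at stage 17 (-2.69 ± 0.39, SE, adjusted p = 0.00186 by edgeR), and Lcp65Ag2 had 28.1 and 23.4 CPM at 24 h ALH and 67.9 and 138 at stage 17 (-2.02 ± 0.38, adjusted p = 0.00488). Neither overlapped between the stages, and both stayed called without any 1 library, as did Lcp65Ag1 and Cpr62Bb. Of the Tweedle genes, TwdlN (1.34 and 8.13 CPM at 24 h ALH, 31.0 and 112 at stage 17), TwdlM, TwdlL and TwdlP were lower. With the gates on dpn, wor and nSyb, 6 of 54 genes were higher and 3 lower, against 1377 and 969 of all 8200 genes.

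Other markers also differed between the stages in neuron-like sums. All 5 NSC markers were called higher at 24 h ALH (summed, 2.89 and 1.27 UMIs per 10000 at 24 h ALH, 0.486 and 0.198 at stage 17). Muscle markers were lower for 4 of 9 tested (0.311 and 0.960 at 24 h ALH, 1.36 and 3.36 at stage 17), glial markers for 2 of 4 (2.94 and 2.79 at 24 h ALH, 8.23 and 8.15 at stage 17) and epidermal markers for 3 of 5, with 1 higher (2.01 and 1.14 at 24 h ALH, 0.517 and 0.661 at stage 17). Tracheal markers were lower for 1 of 5 (0.319 and 0.550 at 24 h ALH, 0.462 and 0.909 at stage 17). Their part in the cuticle protein difference was not tested.

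The 4 genes that were higher in neuron-like cells at 24 h ALH had no UMI there at stage 17. Lcp65Ad had 163 and 18 UMIs at 24 h ALH, at least 38.5-fold higher with the floor of 3 UMIs over both stage 17 libraries. A single cell held 125 of the 163. Ccp84Ac had 49 and 16, at least 13.8-fold higher, Ccp84Af 20 and 38, at least 12.3-fold higher, and Cpr47Ec 13 and 12, at least 5.32-fold higher. None of these 4 calls held without the second stage 17 library. The median log2 fold change was then 0.11 for 40 genes tested and 0.21 for all genes.

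NSC-like sums were next set against neuron-like sums of the same library. At 24 h ALH, 1 of 43 genes tested was higher in NSC-like cells (2.33%) and 17 were lower (39.5%) by edgeR's quasi-likelihood test with Benjamini-Hochberg adjustment over 8108 genes, where 40.8% of all genes were higher and 25.9% lower (66.7% called in either direction). The median log2 fold change of NSC-like over neuron-like was -1.18 for the 43 genes and 0.35 for all genes. The gene that was higher was Cpr76Bc (4.33 ± 0.73, SE, adjusted p = 7.36e-04 by edgeR). It was also called in each of the 3 fits without 1 library in which it was tested, and it was not tested without the first library of 24 h ALH. At resolution 1, 0 of 40 genes tested were higher in NSC-like cells, and after thinning to 1000 UMIs 0 of 9. A single NSC-like cell of the first library of 24 h ALH held 94 UMIs of Cpr76Bc. With the main clusters, the lower genes included Lcp65Ag2 (-1.51 ± 0.29, adjusted p = 0.0012 by edgeR), Lcp65Ac (-1.30 ± 0.28), TwdlM (-1.53 ± 0.39) and Lcp65Ad (-3.08 ± 0.73). In the first library of 24 h ALH a single cell held 125 of the 163 neuron-like UMIs of Lcp65Ad. Lcp65Ag1, Lcp65Ag2 and TwdlM were called without any 1 library. Without the first library of 24 h ALH 9 genes were called, and without the second 10.

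At stage 17 none of the 43 genes was called between NSC-like and neuron-like sums by edgeR's quasi-likelihood test or by DESeq2, where 33.1% of all genes were called (16.6% higher and 16.6% lower). At an unadjusted p under 0.05 there were 2, Cpr76Bc and Cpr100A. Without the first stage 17 library the median log2 fold change of NSC-like over neuron-like was 0.11 for 57 genes tested and -0.03 for all genes. Without the second it was -1.25 for 49 genes tested and -0.39 for all genes. The change of the class difference between the stages, tested after the data were seen as an interaction of class and stage, was called for 3 of 43 genes, all with a negative value, where 19.6% of all genes were called (4.32% positive and 15.2% negative). These were Lcp65Ag2 (-1.95 ± 0.44, SE, adjusted p = 0.0132 by edgeR), TwdlB (-2.60 ± 0.75, adjusted p = 0.0359) and Lcp65Ag3 (-1.58 ± 0.47, adjusted p = 0.0445). A negative value here means that 24 h ALH lay further below stage 17 among NSC-like cells than among the neuron-like ones.

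In the sums of all kept cells, where fewer cells of a type and less RNA per cell cannot be told apart, 77 genes were tested. By edgeR's quasi-likelihood test with Benjamini-Hochberg adjustment over 9457 genes, 10 were higher (13.0%) and 20 lower (25.97%) at 24 h ALH, where 32.6% of all genes were higher and 26.7% lower (59.3% called in either direction). With all libraries the share of lower genes was close to that of all genes, but it changed with the cells and libraries used. Without the 26 cells with 40 or more cuticle protein genes, a fit added after the data were seen, 8 of 72 genes were higher and 31 lower (2675 of all 9397 genes lower), with a median of -2.20. Without the second library of 24 h ALH 29 of 77 were lower (1421 of all 9429 genes), with a median of -3.62. Without the first library of stage 17 there were 10 of 83 lower (2727 of all 9890 genes), and without the second 6 of 81 (2313 of all 9594 genes), with a median of 0.36. With all cells and libraries the median log2 fold change was -1.24 for the 77 genes and 0.12 for all genes. Cpr5C had 31.1 and 24.5 CPM at 24 h ALH and 0.783 and 0.859 at stage 17 (5.04 ± 0.39, SE, adjusted p = 6.16e-04 by edgeR), and Ccp84Aa had 22.4 and 45.0 CPM at 24 h ALH and 1.57 and 2.27 at stage 17 (4.05 ± 0.49, adjusted p = 0.00122). Both lay higher in each library of 24 h ALH.

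Among the genes that were lower at 24 h ALH, Lcp65Ag2 had 32.9 and 55.5 CPM at 24 h ALH and 752 and 1286 at stage 17 (-4.53 ± 0.46, adjusted p = 7.89e-04 by edgeR), and Lcp65Ag3 had 13.3 and 38.6 CPM at 24 h ALH and 943 and 1066 at stage 17. TwdlN had 1.45 and 8.37 CPM at 24 h ALH and 535 and 823 at stage 17. None overlapped. Cpr30F had 51 and 108 UMIs at 24 h ALH and none at stage 17, at least 11.6-fold higher, and Lcp65Ab2 had none at 24 h ALH and 12 and 8 UMIs at stage 17, at least 30.5-fold lower. Without the first stage 17 library the median log2 fold change was -1.23 for 83 genes tested and 0.10 for all genes. Lcp65Ag3 and TwdlN were not called in every fit without 1 stage 17 library. Cpr5C, Ccp84Aa, Lcp65Ad, Lcp65Ag2, Cpr65Ax2, Cpr60D and Cpr78Cb were called without any 1 library.

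**Figure D5:**
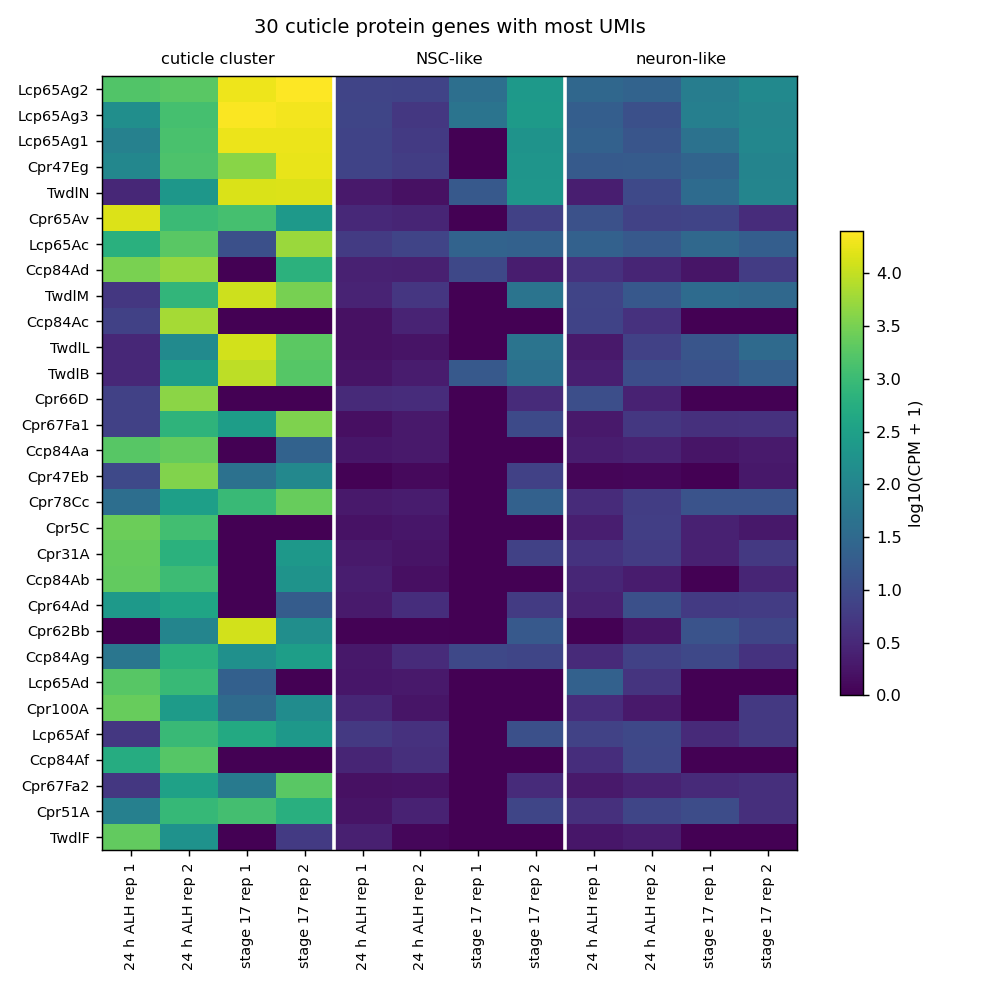
Heat map of log10(CPM + 1) for the 30 cuticle protein genes with most UMIs (down the page) in the cuticle cluster, NSC-like and neuron-like cells of each library (across). In the cuticle cluster Lcp65Ag2 has 1655 and 2046 CPM at 24 h ALH, against 17570 and 32367 at stage 17, and TwdlN has 2.10 and 234 CPM, against 12724 and 18748.

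The other lists of cuticle genes, described by their counts, moved partly with these. In the sums of all kept cells, 0 of 18 chitin genes were higher at 24 h ALH and 9 lower by edgeR, with obst-E at -2.34 (adjusted p = 0.00218), verm at -2.21 (adjusted p = 0.0077) and Gasp, which was not called, at 1.33 (adjusted p = 0.111). Of the zona pellucida list 1 of 8 was higher and 3 were lower, of the sclerotization list 0 of 6 and 2, and of the other cuticle proteins 0 of 6 and 3. In NSC-like sums 3 of 9 chitin genes were lower, and in neuron-like sums 2 of 12, with none higher in either. Among the regulators grh, a transcription factor of both epidermis and NSCs, was higher at 24 h ALH in all kept cells (3.09, adjusted p = 9.51e-04 by edgeR), and 5 of the other regulators were lower.

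The gene with the symbol Cpr (cytochrome P450 reductase) had 331 and 212 of its 477 and 377 UMIs at 24 h ALH in NSC-like cells, and 1 and 9 of 84 and 275 at stage 17. In NSC-like sums it was not called between the stages (0.11 ± 0.39, SE, adjusted p = 0.911 by edgeR).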

How the data were processed

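Single cells were measured in 4 libraries of sorted cells, 2 at 24 h ALH and 2 at stage 17. The deposited UMI counts per gene and cell barcode had been made by the authors with Cell Ranger on the dm6 assembly and are not normalized. The sources differ in the version they give.

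The filters kept cells that had between 200 and 6000 genes and no more than 5% of UMIs from mitochondrial genes. Cells were integrated and clustered in Seurat 5.3.0 with R 4.3.3 on 2000 variable features, 30 dimensions and resolution 0.5, without the cuticle protein genes. Clusters were named from marker lists, by thresholds that were set after the clusters were seen (3 or more markers detected in 25% of the cells, a log2 lead of 0.4 over other lists, no second list above 1.0, and dpn and wor in 75% of NSC-like cells), so the classes may differ from those of the study. Scrublet (scanpy 1.11.5) called doublets, which were left in except in an alternative.

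For each class and library the UMI counts were added up, and the sums were fitted in edgeR 4.0.16 (TMM scaling, low counts filtered, quasi-likelihood test, Benjamini-Hochberg adjustment over all genes tested, threshold 0.05). NSC-like and neuron-like sums of a library were compared with the library as a block. DESeq2 1.42.0 was an alternative. Standard errors are the log2 fold change divided by the root of F. The tests were also run on counts simulated from the fitted sums. With 200 genes changed by a log2 of 2, 53.9% (all kept cells) to 97.9% (classes at 24 h ALH) of those tested were recovered. False calls numbered 2 to 8 per comparison. Floors of 3 UMIs and 95% intervals (SciPy 1.17.1) cover counting error only.

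The cuticle protein genes and the lists were chosen with earlier results of these data known. Named were the 15 genes with most UMIs, the leading gene of each prefix, up to 20 called genes per comparison, Cpr, up to 3 genes of each list and the 10 other genes most like the cuticle protein genes in level. Others, among them Cpr47Ed, Cpr64Ad, Ccp84Ae, Ccp84Ag, Cpr76Ba, Cpr76Bb, Cpr76Bd, Cpr100A and the genes that lead single cells, were named after their values were seen.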

Additional observations from a re-analysis of the deposited data

Results flagged for a closer look

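An interaction of class and stage, added after the data were seen, was called for 3 of 43 genes tested (edgeR's quasi-likelihood test with Benjamini-Hochberg adjustment). All 3 were negative, 6.98% of those tested, where 15.2% of all genes were called negative and 19.6% in either direction. The cuticle protein genes were thus called less often than genes at large. Lcp65Ag2 and Lcp65Ag3 are near-identical copies. The log2 fold change of 24 h ALH over stage 17 in NSC-like cells minus that in neuron-like cells was -2.60 for TwdlB, -1.95 for Lcp65Ag2 and -1.58 for Lcp65Ag3. The second stage 17 library carries most of the stage 17 UMIs behind these values, with 34, 197 and 200 UMIs of the 3 genes in NSC-like cells, against 2, 5 and 6 in the first.

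Cells that the filters left out also held cuticle protein RNA, although no comparison used them. Their level was 2.97 and 41.6 UMIs per 10000 at 24 h ALH (69 and 98 cells) and 32.3 and 46.1 at stage 17 (73 and 345 cells), against 4.93 and 11.3 at 24 h ALH and 79.4 and 70.9 at stage 17 in kept cells. Only in the second library of 24 h ALH was the level higher in the cells left out.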

How the results depend on the processing

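Of 66 gene results, run under 878 alternative settings in all, 697 kept their direction and side of the threshold, 177 kept the direction and lost the call, and 4 reversed. The 4 were NSC-like values without the second stage 17 library: Cpr47Eg 9.85, Lcp65Ag1 9.75, TwdlM 8.74 and Cpr78Cc 7.38, none of them called. Their lowest values without 1 library were -4.69, -4.65, -3.91 and -4.02. In fits without 1 library an arm can hold a lone sample, which is assumed to vary like the others. Leaving out each library in turn gave 1 to 16 called genes for NSC-like stages (12 with all libraries), 5 to 17 for neuron-like stages (16), 9 to 21 for the classes at 24 h ALH (18), 0 to 3 for the classes at stage 17 (0) and 12 to 37 for all kept cells (30). Thinned to 1000 UMIs per cell, the first 4 of these counts were 1 of 1 tested (875 of all 2659 genes), 3 of 3 (605 of 3360), 1 of 9 (2630 of 4531) and 1 of 9 (1156 of 4531). Few cuticle protein genes could thus be tested. With dpn, wor and nSyb gates in place of clusters, neuron-like stages gave 9 (6 higher, 3 lower, against 1377 and 969 of all 8200 genes). The classes at stage 17 gave 1 with these gates (1930 of all 8520 genes). A mitochondrial maximum of 10% gave 3 of 46 for the classes at stage 17 (3301 of all 8172 genes). Without the richest cell of each library and class, chosen after the data were seen, the classes at 24 h ALH gave 11 of 40 (5474 of all 8089 genes).

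Size factors of DESeq2 in place of TMM moved the all-gene median (log2 fold change) for the classes at 24 h ALH to 0.17 from 0.35, for the classes at stage 17 to -0.13 from -0.03 and for all kept cells to -0.01 from 0.12.

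Same-numbered libraries of the stages share only a number, with deviations correlated at 0.039, 0.121 and 0.119 in NSC-like, neuron-like and all-cell sums. A replicate block gave 8 of 26 called genes (3096 of all 7492 genes), 16 of 36 (3753 of 7733) and 37 of 77 (5546 of 9457). Without the block the classes gave 8 of 43 at 24 h ALH (4614 of all 8108 genes) and 1 of 43 at stage 17 (1814 of 8108).

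The mean share held by the richest cluster at 24 h ALH (78.2%) was 63.0% at resolution 1, 64.9% with cuticle protein genes among the features and 61.6% at the 10% maximum. The NSC-like mean at 24 h ALH (0.843 per 10000) was 0.778 at resolution 1, 0.877 at the 10% maximum, 0.966 with gates, 1.06 thinned and 0.713 without the richest cell. The neuron-like mean at 24 h ALH (2.58) was 2.77 at resolution 1, 2.34 with cuticle protein genes among the features, 2.36 at the 10% maximum, 16.5 with gates, 2.69 without doublets and 1.84 without the richest cell. At stage 17 the NSC-like mean (8.23) was 17.0 thinned, 4.91 with cuticle protein genes among the features, 6.15 at the 10% maximum and 6.32 without the richest cell, and the neuron-like mean (6.17) was 54.3 with gates and 9.46 thinned. The nSyb gate also takes in cells outside the neuron-like clusters. The mean share of cells with a cuticle protein UMI at 24 h ALH (15.7%) was 90.3% unthinned, 24.0% at 2000 UMIs and 4.92% for at least 2 UMIs, and at stage 17 (52.0%) it was 83.9% unthinned. The causes were not tested. NSC-like cells of the first stage 17 library, with 30 cuticle protein UMIs in 25 cells, limit every comparison that uses them.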

Other observations

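Over 37 sums of a cluster in a library (at least 20 cells each), the genes outside the 4 prefixes with a level most like that of the summed cuticle protein genes were CG17290 (Pearson r = 0.94 of log2 CPM with 10 added), CG15515 (0.93), CG10953 (0.93), Gfat1 (0.93), an enzyme that supplies the precursor of chitin, CG30457 (0.92), CG15282 (0.92), CG8630 (0.91), CG10598 (0.91), Clect27 (0.91) and l(2)34Fc (0.90). The sums share libraries and differ in depth, and the values are a description. Of the CG17290 UMIs 80.6% and of the Gfat1 UMIs 61.0% lay in the cuticle cluster. Of the cuticle protein genes themselves, 17 reached 0.8 in the same measure.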
